A study of Mus musculus with 58 samples.

Results

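Parvalbumin (PV) interneurons picked one by one from mouse ventral subiculum were ranked by their mitochondrial transcript share. The 18 cells with the highest share, chosen by that value, were set against the 18 with the lowest. The share is the percent of a cell's counts that fell in genes whose symbol starts with mt-. It was computed for the 54 cells that carry the label Pass, out of 58 cells in the series, and left 18 cells in the middle. Both sides hold cells of the strain PV-Cre::Ai9, in which Cre recombinase driven by the parvalbumin gene turns on a red reporter. The labels name no drug and no further allele. Each library holds the cytosol of 1 cell, drawn into a patch pipette, and most come with 3 membrane labels, vrest, rm and cm. The series has 29 cells from 4 male and 29 from 3 female animals. Of the Pass cells, 14 came from males at postnatal day 35 (male P35) and 13 from males at day 36 (male P36). Another 17 came from females at day 40 (female P40) and 10 from females at day 42 (female P42). Males were younger than females throughout, and no label ties a cell to its animal. Cells that share sex and age were therefore summed into 4 pools, and the p-values below measure the spread between pools, which may in part be technical.

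Mitochondria carry a small circular genome that encodes core subunits of the respiratory chain and ATP synthase, and the 2 ribosomal RNAs and the transfer RNAs needed to make them. The remaining subunits, the mitochondrial ribosomal proteins and the enzymes that copy and process mitochondrial RNA are encoded in the nucleus. PV interneurons fire fast and for long, and are known for dense mitochondria. In single-cell work the mitochondrial share is also widely read as a measure of cell and library quality.

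The identity of the cells was checked first. Every one of the 54 Pass cells had counts of Pvalb, which encodes parvalbumin, with a lowest, median and highest level of 1.198, 88.0 and 804 CPM (counts scaled to a common total per cell). Gad1, which encodes a GABA-making enzyme, was at 1346, 3604 and 6799 CPM. Both genes were thus present on both sides. Median Pvalb was 88.0 CPM in the high cells, 106 in the middle cells and 44.3 in the low cells, with ranges that overlapped, and its log2 difference was 0.03 (SE 0.61). That value moved with the choice of cells: it was 1.11 (SE 0.60, unadjusted p = 0.0971) when sides were taken within each pool of cells of the same sex and age, and -0.74 to 0.61 with 1 pool left out. Throughout, CPM is taken over the counts that are not in mt- genes unless another total is named, so that the share itself does not scale the other genes.

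The count table holds 13 mt- genes, which are the 13 protein-coding genes of the 37 genes annotated on the mitochondrial chromosome. The ribosomal and transfer RNAs are not among them. Several stretches of this genome also exist as copies in nuclear chromosomes, many of them on chromosome 1. Within such a stretch a read from one cannot be told from a read from the other. The first 60 bases of mt-Co2 (cytochrome c oxidase subunit II) and of its nuclear copy Gm28661 show such a case, and the stretch of mt-Co1 (subunit I), bases 1054 to 1113 of 1545, that meets the first 60 bases of Gm29216 shows where a copy starts to match. Capitals mark the bases at which a gene and its copy differ, and mt-Cytb (cytochrome b) is given as a gene with no such copy among annotated transcripts. Sequences are from GENCODE vM21 transcripts on GRCm38, 5′ to 3′.
mt-Co2, chrM:7013-7072, plus strand: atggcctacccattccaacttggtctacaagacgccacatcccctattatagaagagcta
Gm28661, chr1:24615506-24615565, minus strand: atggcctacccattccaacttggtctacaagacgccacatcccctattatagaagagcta
mt-Co1, chrM:6381-6440, plus strand: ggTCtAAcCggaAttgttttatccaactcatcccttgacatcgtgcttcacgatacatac
Gm29216, chr1:24616138-24616197, minus strand: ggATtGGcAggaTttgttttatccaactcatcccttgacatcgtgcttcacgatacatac
mt-Cytb, chrM:14145-14204, plus strand: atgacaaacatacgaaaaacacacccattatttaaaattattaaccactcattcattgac

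Gm28661 and mt-Co2 did not differ at any of the 681 bases they share. Gm29216 and mt-Co1 differed at 6 of 492 aligned bases, T1056A, C1057T, A1059G, A1060G, C1062A and A1066T, with positions counted from the first base of mt-Co1 and the copy's base last. All of these lie at the edge of the copy, as the lines above show. To put the overlap on 1 scale, every window of 50 bases in each mt- gene was looked up in all other annotated transcripts. Copies in unannotated sequence were not looked for and would be missed. The share of windows found was 0% for mt-Nd1, mt-Cytb, mt-Nd6 and mt-Atp8. It was 7.61% for mt-Nd5, 8.19% for mt-Nd2, 51.1% for mt-Co1 and 62.2% for mt-Nd4. It was 98.0% for mt-Nd3, 98.8% for mt-Nd4l, 99.5% for mt-Atp6, 99.9% for mt-Co3 and 100% for mt-Co2. None of these copies is a row of the count table.

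The measured mt- counts were dominated by 3 genes. mt-Nd1 (a complex I subunit), mt-Cytb (the complex III subunit) and mt-Co1 (the catalytic core of complex IV) together took 71.3 to 83.6% of a cell's mt- counts, with a median of 77.2%. Per kilobase of transcript, and as CPM of all counts, the median level over 54 cells was 3722 for mt-Nd1, 3504 for mt-Cytb and 2357 for mt-Co1. mt-Nd4, mt-Nd2, mt-Nd6 and mt-Nd5, all of complex I, followed with 844, 761, 627 and 492. The ATP synthase genes mt-Atp8 and mt-Atp6 were at 112 and 77.5, and mt-Co3, mt-Co2, mt-Nd3 and mt-Nd4l were at 64.1, 35.1, 20.7 and 11.4. The 5 genes with 98.0% or more of their windows in a copy held the lowest 5 levels, and together 0.699 to 1.76% of the mt- counts. mt-Atp8 shares no window with an annotated transcript and ranked just above them. It lies between mt-Co2 and mt-Atp6 on the chromosome. The sources used here do not say how reads with several matches were counted, and the part of that step in these levels was not tested.

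**Figure D1:**
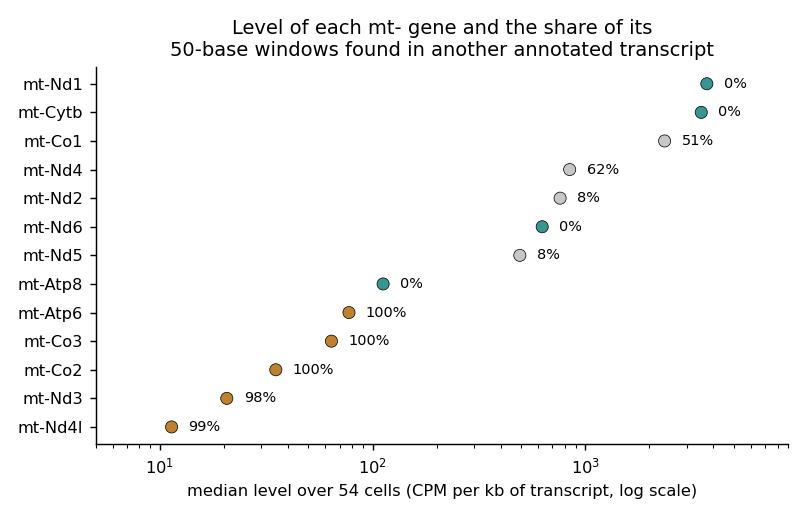
Median level of each of the 13 mt- genes over 54 Pass cells, in CPM of all counts per kilobase of transcript on a log axis, with the percent of its 50-base windows found in another annotated transcript printed beside each point (green 0%, brown over 90%, grey in between). The 5 genes in brown have the lowest levels, from 11.4 to 77.5.

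The share that chose the cells ran from 0.634 to 10.9% over the 54 Pass cells, with a median of 1.45%. The high side spanned 1.89 to 10.9% with a median of 2.29%, the middle 1.203 to 1.72%, and the low side 0.634 to 1.16% with a median of 0.893%. At the upper edge the last high cell had 1.89% and the next cell below it 1.72%. At the lower edge the last low cell had 1.16% and the next above it 1.203%. These values describe the choice, and no test between the sides was made on them. Female P40 cell 15, at 10.9%, stood apart from the next cell, female P40 cell 3 at 4.46%. Cell 3 was also the deepest library, with 52347304 counts.

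All 13 genes moved with the total. The Spearman correlation of each gene's CPM with the summed CPM of the other mt- genes lay between 0.826 and 0.971 over 54 cells, which share depth and total. mt-Cytb had a lowest, median and highest level of 4931, 5929 and 30501 CPM of all counts in the high cells, and of 1643, 2520 and 3434 in the low cells. The make-up of the mt- counts differed little between the sides: mt-Cytb was 26.7% of them at the median of the high cells and 27.9% at that of the low cells, mt-Nd1 25.4 and 24.6%, and mt-Co1 23.5 and 25.6%. These gaps are smaller than the SD between cells of a side for mt-Cytb (2.29 and 2.69) and mt-Nd1 (2.78 and 2.17). For mt-Co1 the gap is below the SD of the high cells (3.41) and above that of the low cells (1.64). Within pools the mt-Cytb percentage differed, high minus low, by -2.15 points in female P42, -1.81 in male P35 and -1.11 in male P36. That of mt-Nd2 differed by 1.45, 0.43 and 0.26 points in the same pools. When only mt-Nd1, mt-Cytb and mt-Nd6, 3 of the 4 genes with no shared window, were used to rank the cells, 18 of 18 high cells and 17 of 18 low cells stayed on their side.

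**Figure D2:**
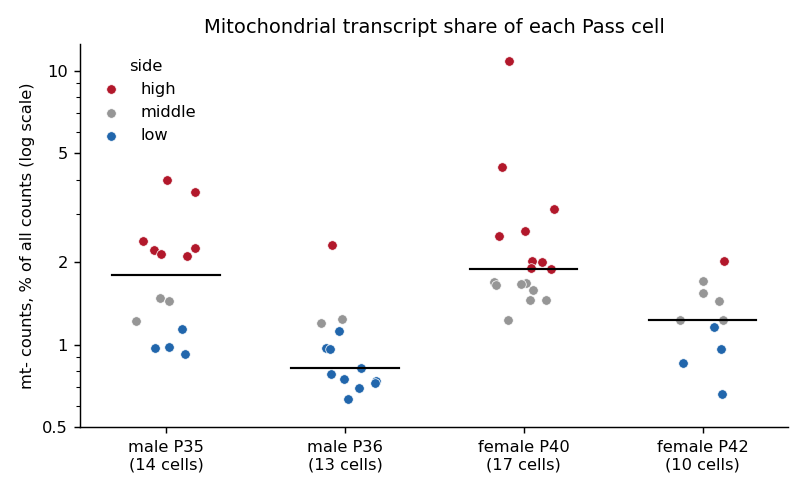
Mitochondrial transcript share of each of the 54 Pass cells (percent of all counts, log axis) in the 4 pools, with the pool median as a bar. High cells (red) lie mostly in male P35 and female P40, and low cells (blue) mostly in male P36, while female P40 has none.

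The sides were spread unevenly over the pools. Male P35 gave 7 high and 4 low cells, male P36 1 high and 10 low, female P40 9 high and 0 low, and female P42 1 high and 4 low. By sex, 10 of the 18 high cells and 4 of the 18 low cells were female. The median share of female P40 was 1.89%, close to the 1.80% of male P35. Female P42 had 1.23%, and male P36 was lowest with 0.824%, so pools of the same sex differed. The labels name no harvest or sequencing batch, and pool, animal and day of work cannot be told apart. The comparison of the sides was therefore made within pools, with pool as a block. It rests on the 3 pools that hold both sides, in 2 of which the high side is 1 cell (female P42 cell 6 and male P36 cell 12). As a second view, sides were taken within each pool (5 against 5, 3 against 3, 4 against 4 and 4 against 4 cells), here called within-pool sides. Of these 32 cells, 22 were on the same side in both comparisons.

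Total counts per Pass cell were 2054581 to 52347304. The mean over pools of the high minus low difference in counts outside the mt- genes was -1.94 (SD 5.98 over 3 pools), in units of 1000000 counts, and the difference in genes detected was 16.02 (SD 110.0). After each cell was thinned to 1996675 counts outside the mt- genes, the difference in genes detected was -120 (SD 402). Exact two-sided sign-flip tests gave p = 0.75, 1.0 and 0.75, where the smallest p that 3 pools allow is 0.25. Over 54 cells the Spearman correlation of the share with total counts was -0.16. Within pools that rank correlation was -0.23. The depth difference was 4.85 in female P42, from its 1 high cell, against -6.41 in male P35 and -4.27 in male P36, all in the unit above. Without female P42 its mean was -5.34 (SD 1.51), and with 12 cells a side -3.94 (SD 2.57, 2 pools). The high cells thus had the lower mean in both male pools. In male P36 the 1 high cell, at 8.83, lay within the 2.74 to 28.7 of the low cells. With medians over cells the difference over 3 pools was -0.22 (SD 3.50).

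Among the genes outside the mitochondrial genome, 1 of 13731 tested passed the threshold (0.00728%, edgeR's quasi-likelihood test, Benjamini-Hochberg adjusted p under 0.05). That gene was Ccl4 (chr11:83662584-83664683, plus strand), a chemokine made by microglia and other immune cells, which was higher in the high cells. Without adjustment 478 genes had p under 0.05 (3.48%), 169 higher (1.23%) and 309 lower (2.25%). The median log2 difference over all genes tested was -0.26, and 39.0% were positive. Among the 2153 genes with a median of 100 CPM or more over cells, a cut chosen after the data were seen, the median was 0.00 and 50.5% were positive. With the within-pool sides no gene of 13183 passed, 572 had an unadjusted p under 0.05 (4.34%; 2.01% higher and 2.33% lower), and the median was -0.04. DESeq2 on the same sums called 506 genes with the 18-cell sides (3.69%) and 220 with the within-pool sides (1.67%). On simulated sums, drawn without differences between pools, 50 genes were changed at each fold. EdgeR's test with the 18-cell sides called 0 of them at a 2-fold change, 12 at 4-fold and 29 at 16-fold. It also called 3 unchanged genes there.

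The highest Ccl4 levels sat in few cells: 2 of the 18 high cells, male P35 cell 1 and male P36 cell 12, held 50.6% of that side's counts. Its lowest, median and highest level was 0.177, 17.3 and 851 CPM in the high cells and 0, 2.46 and 73.4 in the low cells, and 15 of the 18 high cells were above the low median. The single high cell had 182 CPM in female P42 against 0.482 to 9.98 in the low cells, and 446 in male P36 against 0 to 73.4. In male P35 the high cells had 0.177 to 851 CPM and the low cells 0.396 to 10.1, so the sides overlapped there. The log2 difference was 5.62 (SE 0.50, edgeR adjusted p = 0.0432), positive in 3 of 3 pools. On the within-pool sides it was 3.15 (SE 1.73, adjusted p = 0.999), positive in 3 of 4 pools and -3.04 in female P40, as sums. By cell, though, the median in female P40 was 16.96 CPM on the high side and 1.505 on the low side. The highest low cell of that pool, cell 9, had 667 CPM, and the sides overlapped. The call was also lost without 6 cells rich in glial, vascular or blood markers (log2 5.57, adjusted p = 0.0667) and with cells ranked by mt-Nd1, mt-Cytb and mt-Nd6 alone (5.01, adjusted p = 0.0920). Without male P35 its adjusted p was 0.407 and without male P36 0.075, and over 24 alternatives the log2 difference stayed positive while the adjusted p ranged from 1.37e-25 (DESeq2) to 1.0 (no block).

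Genes of microglia, the resident immune cells of the brain, were positive throughout their list of 9 markers. They are not known as genes of PV cells, and are given as a measure of other RNA in the library. The summed level of the list had a lowest, median and highest value of 56.6, 558 and 3479 CPM in the high cells, 65.4, 229 and 12850 in the middle cells, and 40.8, 115 and 3344 in the low cells. Of the high cells 17 of 18 were above the low median, yet the ranges overlapped over most of their length. Such counts over cells mix pool with share, here and for the genes below, since 9 of the high cells and 0 of the low cells are from female P40. Within that pool the median sum was 339 CPM on the high side and 530 on the low side. Over 54 cells the sum had a Spearman correlation of 0.59 with the share, and a rank correlation of 0.26 within pools. No marker was at 0 over a whole side: Tmem119, among the most specific of them, had counts in 17 of 18 high and 15 of 18 low cells. All 9 markers had a positive log2 difference, with a median of 3.18. None passed the adjusted test, and 6 of 9 had an unadjusted p under 0.05, where 1.23% of all genes did so in that direction. With sides taken within each pool 0 of 9 did, against 2.01% of all genes.

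Within the list, C1qb stood next to Ccl4 in the whole test. C1qa, C1qb and C1qc encode the 3 chains of C1q, which starts the classical complement pathway and marks synapses, and their genes neighbour each other. C1qb was at 6.15, 155 and 746 CPM in the high cells (lowest, median and highest), had a median of 50.8 in the middle cells, and was at 0.468, 17.8 and 501 in the low cells. Its log2 difference was 3.18 (SE 0.36, edgeR adjusted p = 0.140), and limma on cell means gave 4.01 with an adjusted p of 0.0356. With the within-pool sides it was 1.69 (SE 0.95, unadjusted p = 0.108). C1qc was at 3.33 (SE 0.52, edgeR adjusted p = 0.606).

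The direction was not the same in all pools. By pool, the median over the 9 markers was 3.12 in female P42 and 3.07 in male P35, with 9 of 9 positive in each, and 2.31 in male P36, with 5 of 9 positive. On the within-pool sides it was 1.92, 2.45 and 1.95 in these pools and -2.62 in female P40, where cell 9, one of the middle cells and on the low side of its own pool, had 12850 CPM. In male P36, low cell 7 had 3344 CPM, and held 51.3% of all C1qb counts of the low side. In both pools with a single high cell, that cell was rich in these markers: female P42 cell 6 had 1164 CPM, the highest of its pool, and male P36 cell 12 had 1668. Without the 6 cells richest in glial, vascular and blood markers the median over the list was 3.24. These 6 were ranked by the joint sum of all such markers. Cells rich in microglial markers stayed in: male P35 cell 1 (3479 CPM), male P36 cells 7 and 12, and female P42 cell 6. The value of 3.24 therefore says little about the part of microglia-rich cells.

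**Figure D3:**
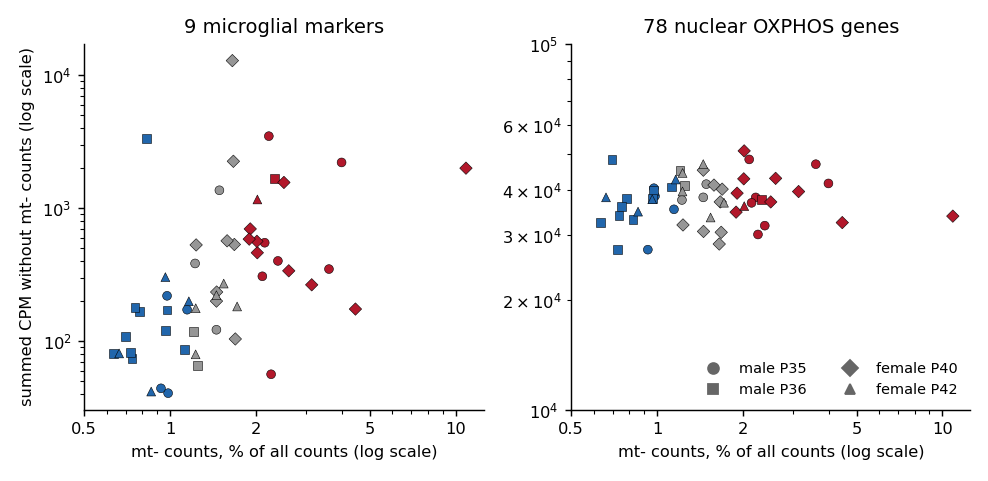
Summed CPM of 9 microglial markers (left) and of 78 nuclear genes of oxidative phosphorylation (right) against the mitochondrial share of each of 54 Pass cells, both axes on log scales, with symbols for pools and colours for high (red), middle (grey) and low (blue) cells. The microglial sum runs from 40.8 to 12850 CPM and the nuclear sum from 27400 to 51020 CPM. Over all 54 cells their Spearman correlations with the share are 0.59 and 0.09. Within pools the rank correlations are close to each other, at 0.26 and 0.22.

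The genes of red blood cells were positive throughout their list as well. Their summed level was 7.10, 161 and 33400 CPM in the high cells (lowest, median and highest) and 3.13, 66.7 and 511 in the low cells, and 12 of 18 high cells were above the low median. All 5 genes had a positive log2 difference (median 3.42, and 3.73 with the within-pool sides), and none passed the adjusted test. Without adjustment 3 of 5 had p under 0.05 in edgeR's test, where 1.23% of all genes did so in that direction. With the within-pool sides 5 of 5 did, against 2.01% of all genes. By pool the median was 5.82 in female P42, 3.88 in male P35 and -0.26 in male P36, where 2 of 5 were positive. It was 1.61 without female P42 and 4.64 without male P36. On the within-pool sides it was positive in 4 of 4 pools, from 1.34 in male P36 to 4.70 in female P40. In male P36, though, the summed level had a median of 48.2 CPM on the high side, whose highest cell had 418, and 52.1 on the low side. Hba-a2, an alpha globin gene, was at 3.42 (SE 0.92, edgeR adjusted p = 0.982). Female P40 cell 15 and female P42 cell 6 held 80.5% of its counts on the 18-cell high side. In female P42 the 1 high cell had 794 CPM of Hba-a2 against 8.08 to 41.4 in the low cells. In male P35 the high cells had 1.51 to 1578 CPM and the low cells 0.252 to 30.0, and in male P36 the 1 high cell had 25.15 against 1.61 to 79.0. Oligodendrocyte markers had a median sum of 738 CPM in the high cells and 389 in the low cells. Of 9 tested, 4 were positive with the 18-cell sides (median log2 -0.28), and 8 of 8 with the within-pool sides (1.41). Astrocyte markers had median sums of 154 and 49.3 CPM and split 4 to 4, with 3 of 8 positive on the within-pool sides. Excitatory neuron markers had median sums of 166 and 136 CPM, with 2 of 10 positive and 0 of 10 on the within-pool sides. Whether RNA of other cells takes part in the differences between the sides, or in the mitochondrial share itself, was not tested.

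The nuclear partners of the mt- genes showed hardly any difference. The 78 nuclear subunits of complexes I to V had a summed level of 30150, 37840 and 51020 CPM in the high cells (lowest, median and highest) and 27400, 37700 and 48350 in the low cells, ranges that coincide. Over the list 56 of 78 differences were positive with a median of 0.10. Over all genes tested 39.0% were positive, and 50.5% of those with a median of 100 CPM or more. No member passed the adjusted test, and none had an unadjusted p under 0.05. With the within-pool sides 44 of 78 were positive, beside 47.0% of all genes, and the median was 0.05. There 2 of 78 had a positive difference with an unadjusted p under 0.05, Ndufa1 and Cox7a2l. That share is near the 2.01% of all genes that did so. Uqcrfs1, the Rieske subunit of complex III, had a negative difference (-0.43, SE 0.18, unadjusted p = 0.0344). Over 54 cells the list's sum had a Spearman correlation of 0.09 with the share, and a rank correlation of 0.22 within pools.

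The medians of the complexes lay between 0.01 and 0.14. Complex I had 25 of 37 positive (median 0.09), complex II 2 of 4 (0.01), complex III 5 of 9 (0.04), complex IV 11 of 13 (0.14) and complex V 13 of 15 (0.12). Complex II, succinate dehydrogenase, is the complex with no mitochondrially encoded subunit. Atp5b, the catalytic beta subunit of ATP synthase and among the most abundant genes of these cells, was at 3204, 3981 and 5886 CPM in the high cells and at 2591, 3991 and 6256 in the low cells. The sides overlap throughout, and its log2 difference was -0.02 (SE 0.16). Cox4i1, a core subunit of complex IV, was at 0.14 (SE 0.19). Cox6a2, a subunit isoform known from PV interneurons, was at 0.03 (SE 0.31). Ndufa1, an accessory subunit of complex I, was at 0.47 (SE 0.34), with 0.56 (SE 0.22, unadjusted p = 0.0346) with the within-pool sides. Its rank correlation with the share within pools was 0.501, which ranked 7 among 11368 genes. Cox7a2l, of the complex IV list, was at 0.46 (SE 0.30), and at 0.53 (SE 0.20, unadjusted p = 0.0236) on the within-pool sides.

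No nuclear gene that copies or processes mitochondrial RNA passed the adjusted test. Over all genes tested 39.0% of differences were positive, and the shares below are to be read beside that. Of 18 genes for transcription, replication and packaging of mitochondrial DNA, 7 were positive (38.9%), with a median of -1.29, which was -0.07 with the within-pool sides. Their summed level differed less, with a median of 517 CPM in the high cells and 576 in the low cells. Polrmt, the mitochondrial RNA polymerase, had a lowest, median and highest level of 0.153, 27.6 and 457 CPM in the high cells and 0.453, 70.8 and 247 in the low cells. The sides overlapped, and its log2 difference was -2.20 (SE 1.01, edgeR adjusted p = 0.982). Tfam, which packages and transcribes mitochondrial DNA, was at -0.92 (SE 1.18) and -0.07 (SE 0.53) with the within-pool sides. Of 20 genes for processing and decay of mitochondrial RNA, 5 were positive (25.0%, median -0.44, and -0.45 with the within-pool sides). Their summed level had a median of 1141 CPM in the high cells and 1180 in the low cells. Lrpprc, which stabilises mitochondrial messenger RNA, was at -0.63 (SE 0.42). Polg, the mitochondrial DNA polymerase, was positive, at 1.78 (SE 0.66, edgeR adjusted p = 0.982).

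Most other mitochondrial groups lay near 0. The mitochondrial ribosomal proteins had 43 of 76 positive (median 0.06), the citric acid cycle 8 of 16 (0.00), protein import and chaperones 9 of 19 (0.00), and fusion, fission and transport 13 of 24 (0.04). These were 37 of 76, 5 of 16, 7 of 19 and 11 of 24 on the within-pool sides. The regulators of mitochondrial biogenesis had 1 of 12 positive (median -0.44), and 4 of 12 with the within-pool sides (-0.09). Ppargc1a, the coactivator best known in that role, was at -0.80 (SE 0.46) and -0.10 (SE 0.22). Stress genes of mitochondria had 4 of 11 positive (median -0.72) and 7 of 11 with the within-pool sides (0.09), and antioxidant genes had 7 of 15. None of these genes passed the adjusted test.

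Outside mitochondria, cytosolic ribosomal proteins had 62 of 78 positive (median 0.23) and 61 of 77 with the within-pool sides (0.13). Their summed level was 7901, 10070 and 21100 CPM in the high cells and 6133, 9122 and 10950 in the low cells. These ranges overlap, and no member passed. The glycolytic enzymes had 4 of 16 positive (median -0.11) and 0 of 16 with the within-pool sides (-0.20). Aldoc, an aldolase, was at -0.56 (SE 0.23, unadjusted p = 0.0397), and Gapdh at 0.04 (SE 0.16). Fos, which neurons switch on with activity, was at 272, 1380 and 2659 CPM in the high cells and 378, 1273 and 2185 in the low cells, which overlap. Its log2 difference was 0.86 (SE 0.21, edgeR adjusted p = 0.982), while the immediate early list as a whole had 9 of 18 positive.

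**Figure D4:**
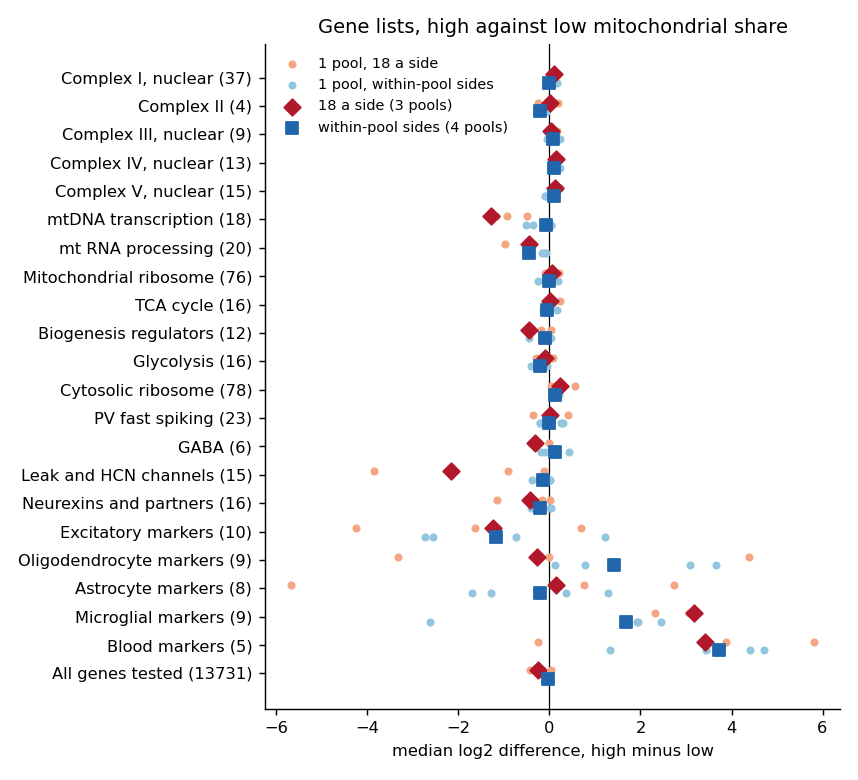
Median log2 difference (high minus low) of each gene list, with the number of genes tested in brackets, for the 18-cell sides (red diamonds, 3 pools) and for the within-pool sides (blue squares, 4 pools), and small points for the single pools. Lists of oxidative phosphorylation lie between -0.21 and 0.14, while microglial and blood markers lie between 1.69 and 3.73.

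The genes of PV cells themselves were evenly split. Of 23 genes of fast-spiking PV cells, 12 were positive, with a median of 0.01, and 11 of 23 on the within-pool sides. Kcnc1, whose channel lets these cells fire fast, was at 0.01 (SE 0.26). Erbb4, the neuregulin receptor of PV cells, was at 136, 245 and 478 CPM in the high cells and 39.4, 163 and 298 in the low cells. Its log2 difference was 0.85 (SE 0.29, edgeR adjusted p = 0.982), with 0.79 (SE 0.19) with the within-pool sides. Satb1, a transcription factor of this lineage, was at -1.50 (SE 0.41, edgeR adjusted p = 0.982). Of the genes that make and move GABA, 1 of 6 was positive (median -0.31) and 4 of 6 on the within-pool sides (0.13). Gad1 was at -0.16 (SE 0.19).

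Among neurexins and their partners, the subject named in the title of the series, 5 of 16 were positive (median -0.42), 4 of 15 on the within-pool sides (-0.20), and none passed. Nrxn3 was at 72.2, 192 and 435 CPM in the high cells and 55.1, 198 and 552 in the low cells, and its log2 difference was 0.07 (SE 0.49). Clstn1, which encodes calsyntenin 1, was at -1.07 (SE 0.29, edgeR adjusted p = 0.982). Nxph2, which encodes a neurexophilin, a secreted ligand of alpha neurexins, was outside the list and among the 6 higher genes of smallest p. It was at 3.24, 86.6 and 681 CPM in the high cells and 0.627, 48.9 and 187 in the low cells, so the sides overlapped. Its log2 difference was 2.19 (SE 0.37, edgeR adjusted p = 0.751), and 1.70 (SE 0.32, edgeR adjusted p = 0.884) with the within-pool sides.

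The 6 lower genes of smallest p, none of which passed, were Npffr1, Sst, Gpx3, Cnr1, Fhl1 and Cd200. Cnr1 encodes the CB1 cannabinoid receptor and is a known gene of cholecystokinin interneurons. It was at 0, 3.64 and 137 CPM in the high cells (lowest, median and highest), had a median of 20.8 in the middle cells, and was at 1.21, 77.7 and 574 in the low cells. Only 2 of 18 high cells lay above the low median. Its log2 difference was -5.37 (SE 1.22, edgeR adjusted p = 0.982), and -2.24 (SE 0.37, edgeR adjusted p = 0.589) with the within-pool sides. Sst encodes somatostatin, which marks a different kind of interneuron. Both genes are in a list of 12 markers of other interneurons, of which 2 were positive (median -3.18). With the within-pool sides that list was evenly split, with 5 of 10 positive (median -0.005). The CPM of Sst was 0.118, 9.50 and 172 in the high cells and 0.519, 15.03 and 3329 in the low cells. Male P35 cell 3 held 53.7% of the low side's counts. The log2 difference was -3.87 (SE 0.84, edgeR adjusted p = 0.982) and lay between -4.97 and -3.10 with any 1 pool left out. On the within-pool sides it was -2.71 (SE 0.54, edgeR adjusted p = 0.884), negative in 4 of 4 pools as sums. In female P40, though, the median was 19.3 CPM on the high side and 7.84 on the low side, whose highest cell had 597. Over 54 cells Sst had a Spearman correlation of -0.05 with the share, and a rank correlation of -0.01 within pools. Cd200, a neuronal surface protein that binds a receptor on microglia, was at -2.35 (SE 0.63, edgeR adjusted p = 0.982) and -0.57 (SE 0.35) with the within-pool sides.

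The membrane labels vrest, rm and cm were compared in the same way. Their units and method are not given, and they are printed as labelled, for 16 of 18 cells on each side. vrest was -67.0, -58.0 and -49.0 in the high cells (lowest, median and highest) and -72.0, -60.0 and -48.0 in the low cells, so the ranges coincide. rm was 146, 321 and 582 in the high cells and 88.0, 240 and 560 in the low cells. cm was 24.0, 36.0 and 65.0 in the high cells and 24.0, 46.0 and 102 in the low cells. The ranges of rm and cm overlapped too.

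Only male P35 and male P36 gave a difference within a pool, since the 1 high cell of female P42 has no membrane labels. vrest was higher in the high cells by 4.79 in male P35 and 6.11 in male P36, a mean of 5.45 (SD 0.94). For rm the differences were 29.3 and 240, with a mean of 135 (SD 149), and for cm they were -15.3 and -31.1, with a mean of -23.2 (SD 11.2). The exact sign-flip test gave p = 0.5 for each, adjusted p = 0.5 over 3 labels, which is the smallest p that 2 pools allow. Each male P36 value sets 1 cell against 10. In male P35, 7 high cells were set against 4 low cells for vrest but against only 2 for rm and cm. The SD of those 2 low cells was 334 for rm and 38.2 for cm. On the within-pool sides, which use 4 pools, the means were 1.06 (SD 3.48), 38.8 (SD 140) and -4.36 (SD 11.1), with exact p = 0.625, 1.0 and 0.5, adjusted p = 0.938, 1.0 and 0.938, and a smallest possible p of 0.125. vrest was then higher in 2 of 4 pools, rm in 1 of 4 and cm in 1 of 4. Over the 49 cells with labels the Spearman correlation with the share was 0.07 for vrest, 0.23 for rm and -0.20 for cm, and the rank correlation within pools was 0.15, 0.04 and -0.08. A difference in membrane values was not detectable with these cells. Of 18 channel genes for potassium leak, inward rectification and HCN current, 15 were tested. Of these, 3 were positive (20.0%, median -2.17), beside 39.0% of all genes tested. With the within-pool sides 5 of 15 were positive (-0.15), and none passed. By pool the median was -0.12 in male P35, and -0.90 in female P42 and -3.85 in male P36, which have 1 high cell each. The summed level of the 18 genes hardly differed, with a median of 813 CPM in the high cells and 800 in the low cells.

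**Figure D5:**
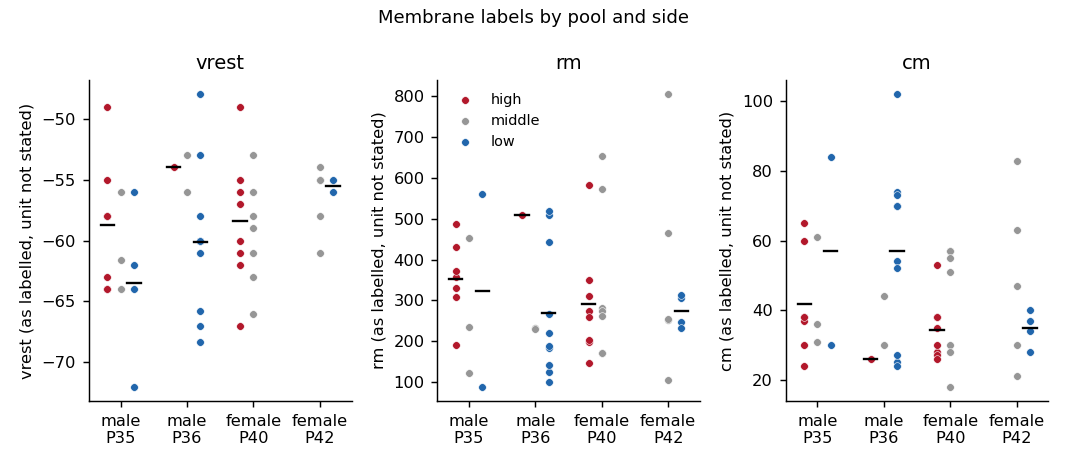
vrest, rm and cm as labelled (units not stated) for the cells of each pool, with high cells in red, middle cells in grey and low cells in blue, and bars at the means of the high and low cells. Only male P35 and male P36 hold labelled cells of both sides, and the sides overlap for each label in male P35.

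The mitochondrial ribosomal RNAs are not rows of the count table, but 1 nuclear gene in it shares a 50-base window with a mitochondrial transcript. This is Gm20594 (chr6:79817916-79818364, plus strand, annotated as protein-coding), which has a run of 65 bases in common with mt-Rnr2, the large ribosomal RNA. The first 30 bases of that run, which stand for what a read could match in both, are these.
mt-Rnr2, chrM:2102-2131, plus strand: tttaatcagtgaaattgacctttcagtgaa
The gene had few counts, with a lowest, median and highest count of 1, 6 and 39 in the high cells, 0, 3 and 21 in the middle cells, and 0, 2 and 10 in the low cells. As CPM these were 0.131, 0.730 and 5.51 in the high cells and 0, 0.192 and 0.469 in the low cells, so the high median lay above the highest low cell, although the ranges overlapped. It was named after its values had been seen. Over 54 cells its CPM had a Spearman correlation of 0.694 with the share and a rank correlation of 0.608 within pools. Both were the highest of 11368 genes with counts in at least 40 cells. These cells share depth and library, and the counts are small. The edgeR test on sums gave a log2 difference of 1.82 (SE 1.66, adjusted p = 0.982) and did not pass.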

How the data were processed

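Cytosol of single PV cells was harvested by patch pipette and made into Nextera XT libraries, per the labels' protocols. STAR, edgeR and GRCm38 are named per the submitters' processing notes. The sources used here do not give versions, how genes were counted, which annotation was used, or whether strand was read. The values analysed are the authors' raw counts per gene, deposited as whole numbers for 25648 genes and 58 cells. The other deposited tables were not used. All columns matched a labelled cell (0 unmatched). Total counts ran from 2054581 to 52347304 per Pass cell, 4 Fail cells were left out, and 0 pairs of cells held identical values.

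Counts were summed over the high and the low cells of each pool (cells that share sex and age). Genes outside the mt- set were tested if they had a count in at least 10 of the 36 cells and passed filterByExpr. The test was edgeR's quasi-likelihood test (edgeR 4.0.16, R 4.3.3) with TMM normalization and pool as a block, at an adjusted p under 0.05. Alternatives used DESeq2 1.42.0, limma 3.58.1 (pseudocount of 1), 12 or 27 cells a side, sides taken within each pool, thinning, and pools left out. The SE is the absolute log2 difference over the square root of F. Labels and depth were compared as pool differences with an exact sign-flip test. Cells were numbered in accession order within a pool, and these numbers pair nothing. The test was run on simulated sums of 13731 genes, and 3 unchanged genes were called. Sequences and positions are from GENCODE vM21 on GRCm38.

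The members, gene lists and tests were chosen with earlier results of these data known. Genes were named by a rule: called genes; in each direction, the 6 of smallest p among those with 1 sign in all 3 pools; from each list, the 2 of highest level and the 2 of smallest p; and a set of identity, mitochondrial and housekeeping genes. The text gives those that describe a group. One result is not reported here. Gm20594, Lars2, C1qa, Tmem119, Uqcrfs1, the genes of the correlation list and the single cells named were chosen after their values were seen.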

Additional observations from a re-analysis of the deposited data

Results flagged for a closer look

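In groups of 4 to 10 cells, 7 values of 61 tested groups lay farther from their nearest neighbour than Dixon's limit allows. That limit lets through about 1 in 20 by chance if values are normally distributed. Shares, counts and CPM sums were used without a log, so that rate need not hold here. Among the 9 high cells of female P40, cell 15 had a mitochondrial share of 10.9% and cell 3 had 50.01 in units of 1000000 counts outside the mt- genes. The share itself chose these 9 cells, so its flag is a description only. In the 8 of these cells with labels, cell 17 had an rm of 582 and cell 4 a cm of 53.0. The summed microglial level was 12850 CPM in cell 9 among the 8 middle cells of female P40. It was 1164 CPM in cell 6 among all 10 cells of female P42, and that cell is the only high cell of its pool. It was 3344 CPM in cell 7 among the 10 low cells of male P36. Female P40 has no low cell, so its values do not enter the difference between the 18-cell sides.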

How the results depend on the processing

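The count of called genes was 1, and it moved with nearly every choice. It was 0 with no replicate block, 2 with no filter on low counts, 506 with DESeq2, 3 with limma, 26 with 12 cells a side, 0 with 27 a side, and 2 after thinning. It was 0 with the within-pool sides, also without the 2 highest cells and with no replicate block, and 220 with DESeq2 there. It was 0 without 6 high-marker cells and 0 with cells ranked by mt-Nd1, mt-Cytb and mt-Nd6 alone. Leaving out 1 pool gave 0 (male P35) to 21 (female P42) calls, and 3 without male P36. With the within-pool sides it gave 0 to 3. The count stayed at 1 with RLE normalization, with mt- genes kept in the scale, and with protein-coding mt- genes only, which are all 13. Ccl4 kept its sign under 24 of 24 alternatives. Those added after the data were seen are the ones without cells, by these 3 mt- genes, and all further versions of the within-pool sides.

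vrest (5.45) became 10.03 with 12 cells a side, 2.67 with 27, 1.06 with the within-pool sides and 2.13 as a plain difference over cells. Leaving out pools gave 4.79 to 6.11. cm became -5.86 with 27 a side and -4.36 with the within-pool sides, and -31.1 to -15.3 with pools left out, and rm then spanned 29.3 to 240. Genes detected became -132 with 12 a side, -114 with the within-pool sides and -103 over cells.

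The median of nuclear oxidative phosphorylation genes (0.10) was 0.20 with RLE and with DESeq2, 0.051 with limma, 0.27 with 12 a side, -0.041 with 27, 0.053 with the within-pool sides and 0.044 there with no replicate block. Leaving out pools gave 0.076 to 0.16. With the within-pool sides that gave -0.0026 (female P40) to 0.091, with 0.034 without male P36 and 0.047 without female P42. The microglial median (3.18) was 2.44 with no replicate block, 2.68 with 12 a side, 2.45 with 27, 2.50 as a median over cells on the full total, and 1.69 with the within-pool sides. There it was 1.74 without the 2 highest cells, 1.72 with DESeq2 and -0.56 with no replicate block. Leaving out pools gave 2.72 to 3.25, and 0.55 (male P35) to 2.70 (female P40) with the within-pool sides, with 1.09 without male P36 and 1.17 without female P42. The causes were not tested. Of the other list medians, that of PV genes changed sign under 8 of 25 alternatives, and that of oligodendrocyte markers under 15 of 25.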

Other observations

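The genes whose CPM followed the mitochondrial share most closely from cell to cell were listed after the data were seen, over 11368 genes with counts in at least 40 of 54 cells, as a description. After Gm20594, the highest Spearman correlations were those of C1qb (0.569), Cst3 (0.566), Tyrobp (0.555), Gm10801 (0.551), Sepp1 (0.543), Ccdc152 (0.542) and C1qc (0.534). Cst3 encodes cystatin C, and Tyrobp an adaptor of microglial receptors. Of the 15 highest genes, 4 are in the microglial list. Within pools C1qb was at 0.260 and ranked 437. Gm10801 kept 0.544 within pools and ranked 4. The lowest were Rexo4 (-0.607), Pdia6 (-0.557), P2rx6 (-0.545) and Cyfip2 (-0.506).

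Lars2, the nuclear gene of the mitochondrial leucyl-tRNA synthetase, ranked 14 with 0.497, and 21 within pools with 0.433. It was at 294, 635 and 8499 CPM in the high cells (lowest, median and highest) and at 205, 438 and 842 in the low cells. Its log2 difference was 1.01 (SE 0.24, edgeR adjusted p = 0.982), and 1.14 (SE 0.27) with the within-pool sides. It shares no 50-base window with a mitochondrial transcript.

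The 4 cells labelled Fail, which entered no comparison, had shares of 1.66 and 1.19% (male P35) and of 2.47 and 1.297% (female P40), within the range of the Pass cells. Their total counts were 835969, 596471, 545497 and 5078485.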
